A study of Rattus norvegicus with 18 samples.

Results

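Intermediate filaments were followed through 8 of their genes, the neuronal Nefl, Nefm, Nefh, Inexa and Prph1 and the Gfap, Vim and Nes of glia and of undifferentiated cells. A gene was taken where the array's symbol equalled one of these names, with case and the endings for predicted or mapped genes ignored. All 8 were found, each with 1 probe, among the 21563 gene symbols of the array. Inexa is now called Ina and Prph1 is now called Prph, and the older names printed on the array are kept here. RNA came from primary cortical neurons of embryonic rats grown in Neural Basal Medium, and was read on Illumina RatRef-12 bead arrays. On day 1 of culture the cells had been given a pLKO.1 lentivirus for 6 hours. One arm received a virus with an shRNA against CHD5, a chromatin remodeling enzyme of neurons, and the other arm received the control shRNA virus. Each arm was harvested on days 5, 9 and 12 with 3 arrays each (replicates a, b and c), which gives 18 arrays in 6 groups. Every group thus carried a lentivirus, there was no uninfected group, and 1 shRNA sequence represented CHD5. Nothing in the labels says whether the replicates were separate cultures, so p-values measure only the spread between these arrays.

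Intermediate filaments are ropes of coiled proteins that give a cell its mechanical shape, and each cell type builds them from its own members of the family. Dividing precursors use nestin (Nes) and vimentin (Vim), young neurons switch to alpha-internexin (Inexa) and then to the neurofilament subunits of light, medium and heavy size (Nefl, Nefm, Nefh), and astrocytes switch to glial fibrillary acidic protein (Gfap). Peripherin (Prph1) is best known from neurons that project outside the brain, where it copolymerizes with the neurofilament subunits.

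Levels below are log2 signals scaled so that each array has the same mean and the same spread, and they are compared between groups of arrays for 1 probe at a time. A difference was called when its adjusted p from limma, a linear model run over all 11079 probes detected on at least 1 array, was below 0.05. The SE, interval and limma p-value of a difference use 1 spread per probe shared by all 6 groups. They do not show the spread of the compared groups alone. An exact two-sided permutation test of 3 arrays against 3 cannot give a p under 0.1, and 0.1 is what it gave wherever the groups did not overlap. The day 9 control array of replicate b stood apart from the rest. Its mean signal was 134.8 against 400.2 to 789.3 on the other arrays, and it detected 7047 probes against 8360 to 9931. The SD of its log2 signals was 1.11 against 1.72 to 2.02, so the scaling stretched its levels. Values are therefore given with and without that array where it changed a call. Leaving out an array can also change calls in comparisons that do not hold it. This goes through the shared spread, the scaling and the adjustment over all probes. The reading covers bulk RNA, in which fewer cells of a type and less RNA per cell cannot be told apart. No probe of the array is annotated to Chd5 itself, so its depletion was not read here.

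The sequences just before the transcription start are shown for the 4 genes on which the results turn, Prph1 and Inexa, which were higher with CHD5 shRNA, and Gfap and Vim, which were lower. They are the 250 bases upstream of the start in the RefSeq table for GRCr8, matched by gene ID, and 5 of the 8 genes had an entry there (these 4 and Nes). The Prph1 window is chr7:132097039-132097288 on the plus strand, that of Inexa is chr1:255837879-255838128 on the plus strand, that of Gfap is chr10:88361662-88361911 on the minus strand and that of Vim is chr17:81577011-81577260 on the plus strand. Capitals mark the motifs TATAAA and also CCAAT and also GGGCGG on either strand.
Prph1: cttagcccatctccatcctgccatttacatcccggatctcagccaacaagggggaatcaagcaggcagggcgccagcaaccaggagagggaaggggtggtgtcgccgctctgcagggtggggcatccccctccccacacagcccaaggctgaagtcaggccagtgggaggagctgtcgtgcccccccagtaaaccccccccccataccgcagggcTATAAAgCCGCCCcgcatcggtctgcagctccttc
Inexa: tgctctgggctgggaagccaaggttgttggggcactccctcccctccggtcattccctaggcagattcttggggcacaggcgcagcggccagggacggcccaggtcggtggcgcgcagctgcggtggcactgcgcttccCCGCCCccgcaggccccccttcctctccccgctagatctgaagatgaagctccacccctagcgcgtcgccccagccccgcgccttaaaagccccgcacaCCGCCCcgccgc
Gfap: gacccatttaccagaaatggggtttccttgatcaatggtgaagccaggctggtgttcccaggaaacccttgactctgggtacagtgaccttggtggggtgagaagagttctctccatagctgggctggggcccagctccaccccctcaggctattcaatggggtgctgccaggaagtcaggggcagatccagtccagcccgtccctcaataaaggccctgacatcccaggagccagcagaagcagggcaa
Vim: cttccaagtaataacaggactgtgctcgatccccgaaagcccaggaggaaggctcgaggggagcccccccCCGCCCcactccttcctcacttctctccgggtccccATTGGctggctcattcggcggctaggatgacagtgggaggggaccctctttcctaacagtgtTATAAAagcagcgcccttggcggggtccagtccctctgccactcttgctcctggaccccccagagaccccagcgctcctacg

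TATAAA, the letters of a TATA box, began 35 bases before the start of Prph1 and 82 bases before that of Vim. It was not among the letters of the Inexa, Gfap and Nes windows, and whether either match acts as a TATA box was not tested. Of 33469 windows of the same length, 12.9% held it. GGGCGG, to which Sp1-type factors bind, stood in the Prph1, Inexa, Vim and Nes windows and in 30.5% of all windows. CCAAT was in the Vim window only and in 34.0% of all windows. TTGGC, part of the sequence bound by NFI factors, lay in the Prph1, Inexa and Vim windows and in 40.3% of all windows, and 1 of the 2 Vim matches overlapped its CCAAT match. The motif CANNTG, the E-box of basic helix-loop-helix factors, was in the Inexa window among the 5 and in 65.5% of all windows. The upstream G and C content was 64.4% for Prph1, 70.8% for Inexa, 57.6% for Gfap and 62.4% for Vim, against a median of 51.2% over all windows. These are matches of letters, and no factor was measured at them.

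The neurofilament subunits Nefl and Nefm were not called different between the arms on any day. The study itself reported less Nefl and Nefm mRNA after CHD5 depletion, by quantitative PCR in independent samples. It had picked its PCR targets from its own microarray analysis, under other limits (among them a Z-ratio and a false detection rate). It counted a gene as reduced if this held in any time window. Nefl, which encodes the light subunit that starts neurofilament assembly, had levels of 10.81, 11.02 and 11.01 on the day 5 control arrays and 10.66, 10.84 and 10.72 with CHD5 shRNA. At day 9 they were 10.74, 10.20 and 10.58 in controls and 10.68, 10.64 and 10.59 with CHD5 shRNA. At day 12 they were 10.91, 10.85 and 10.88 in controls and 10.80, 10.74 and 10.74 with CHD5 shRNA. The arms overlapped at days 5 and 9, and at day 12 all 3 CHD5 shRNA arrays were below all 3 control arrays by a small margin. The differences of CHD5 shRNA from control on the log2 scale were -0.20 (95% interval -0.44 to 0.04) at day 5, 0.13 (-0.11 to 0.37) at day 9 and -0.12 (-0.36 to 0.12) at day 12. Their adjusted p-values from limma were 0.983, 0.54 and 0.75.

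Nefm, the medium subunit, whose gene lies beside Nefl on chromosome 15 with no protein-coding gene between them in GRCr8, stayed between 7.69 and 8.31 on all 18 arrays. Its arms overlapped on every day. The differences were -0.04 (95% interval -0.26 to 0.18), 0.09 (-0.13 to 0.31) and -0.01 (-0.23 to 0.21) at days 5, 9 and 12. These intervals still hold changes from -0.26 to 0.31 on the log2 scale. Nefh, the heavy subunit of mature thick axons, was detected on 1 of 18 arrays, a day 5 control, with signals between 66.99 and 109.4 that were otherwise not above background. No difference is given for it.

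Inexa, the alpha-internexin that young neurons assemble before and beside the neurofilament subunits, rose at day 9 in the CHD5 shRNA arm relative to control. Its levels at day 5 were 9.59, 9.67 and 9.84 in controls and 10.14, 9.53 and 9.94 with CHD5 shRNA, and the arms overlapped. At day 9 they were 9.60, 8.86 and 9.45 in controls and 10.45, 10.08 and 10.56 with CHD5 shRNA. At day 12 they were 10.11, 9.72 and 9.74 in controls and 10.40, 10.29 and 10.35 with CHD5 shRNA. All CHD5 shRNA arrays were above all control arrays on days 9 and 12. The difference was 0.17 ± 0.18 (SE, adjusted p = 0.999) at day 5, 1.06 ± 0.18 (2.08-fold, limma adjusted p = 0.00337) at day 9 and 0.50 ± 0.18 (limma adjusted p = 0.153) at day 12. Without the day 9 control array b, whose 8.86 was the lowest level of the gene, the day 9 difference was 0.86 ± 0.16 (limma adjusted p = 0.0018) and the day 12 difference was 0.51 ± 0.14 and was called (limma adjusted p = 0.0229).

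Prph1, peripherin, stood furthest above control in the family at days 9 and 12. The day 5 levels were 8.15, 7.78 and 7.82 in controls and 8.25, 8.34 and 8.36 with CHD5 shRNA. The day 9 levels were 7.94, 7.57 and 7.86 in controls and 9.18, 8.76 and 9.34 with CHD5 shRNA. The day 12 levels were 7.58, 7.51 and 7.52 in controls and 9.21, 8.90 and 9.20 with CHD5 shRNA. The arms did not overlap on any day, and the gap was narrow at day 5 and wide at day 12. The difference was 0.40 ± 0.14 (SE, 1.32-fold, limma adjusted p = 0.517) at day 5, 1.30 ± 0.14 (2.46-fold, limma adjusted p = 0.000112) at day 9 and 1.57 ± 0.14 (2.96-fold, limma adjusted p = 5.42e-06) at day 12. In deposited signal, which still contains the background, the day 12 arrays read 203.6, 184.2 and 205 in controls and 659, 476.4 and 575.8 with CHD5 shRNA.

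The order of the Prph1 levels was day 12 control, day 9 control and day 5 control, which overlapped as neighbours, then CHD5 shRNA at day 5, which stood clear of both neighbours, and then CHD5 shRNA at days 9 and 12, which overlapped. Inexa was highest on average with CHD5 shRNA at days 9 and 12, but without a clear gap, since the day 9 CHD5 shRNA array b (10.08) lay below a day 5 CHD5 shRNA array (10.14) and a day 12 control array (10.11).

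**Figure D1:**
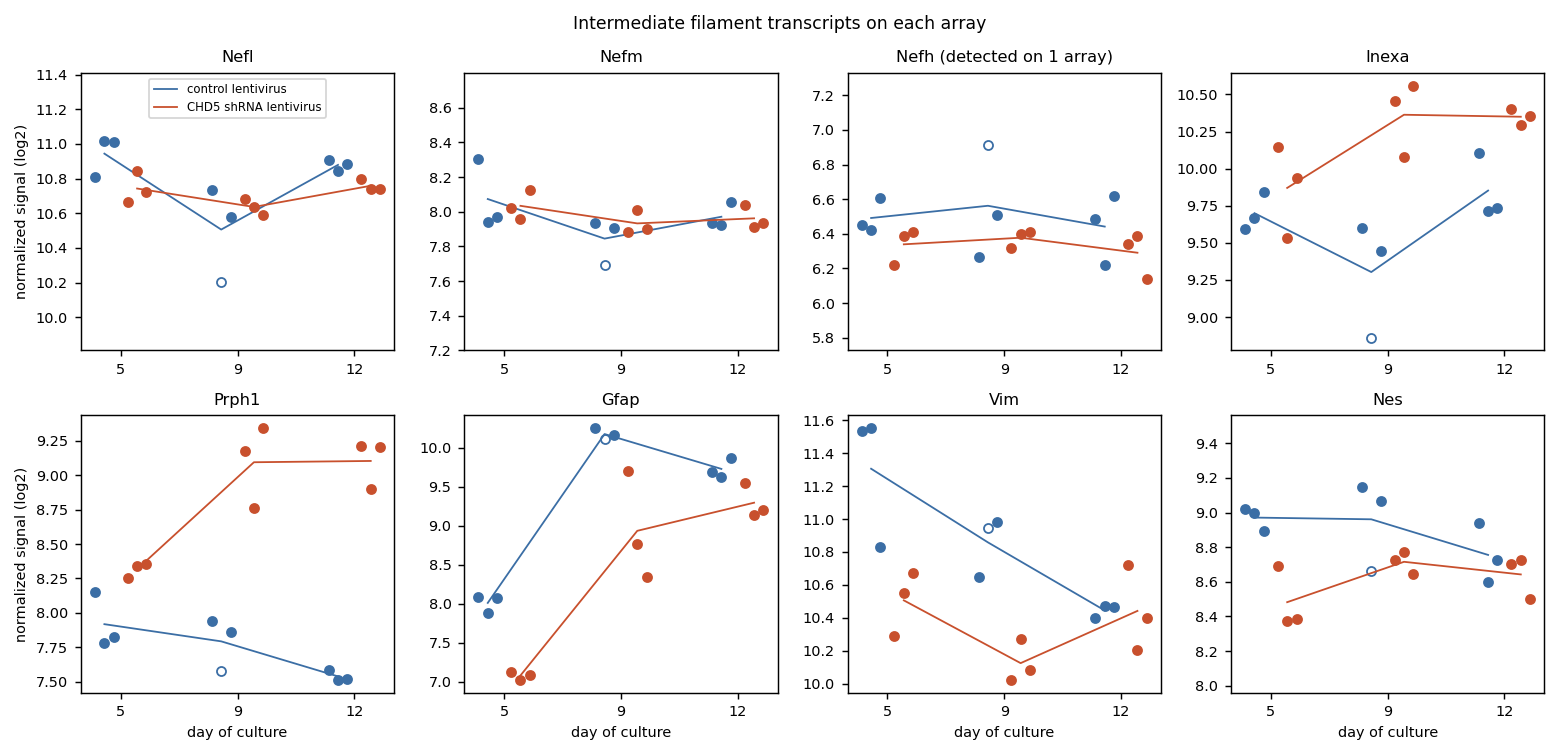
Normalized log2 signal of each gene (vertical axis) on each of the 18 arrays by day of culture (horizontal axis), control arrays in blue and CHD5 shRNA arrays in red, lines joining the group means, and the day 9 control array b as an open circle. Prph1 and Inexa are above control with CHD5 shRNA at days 9 and 12, Gfap is below control on all days, and Nefm stays between 7.69 and 8.31.

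The ratio of the deposited signals of 2 probes on the same array is free of a factor common to that array. It is not free of the background left in the signals or of a difference in spread between arrays. It shows only that the probes changed unequally. The log2 ratio of the deposited signals of Prph1 over Nefm was -0.16 ± 0.01 (SD, n = 3) in day 5 controls and 0.30 ± 0.10 with CHD5 shRNA. At day 9 it was -0.04 ± 0.04 in controls and 1.13 ± 0.35 with CHD5 shRNA. At day 12 it was -0.44 ± 0.10 in controls and 1.14 ± 0.15 with CHD5 shRNA. The arms did not overlap on any of these days (exact permutation p = 0.1 each), and the difference between them was 0.47, 1.17 and 1.58. Here the day 9 control array b lay with its group, but this says little. Its signals of 88.85 (Prph1) and 93.51 (Nefm) were near that of Nefh there, 66.99 and not detected.

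Prph1 over Nefl differed by 0.62 at day 5 and 1.73 at day 12 with no overlap. At day 9 it differed by 0.94 and the arms overlapped through the control array b, and without that array by 1.36. Inexa over Nefl differed by 0.38 at day 5 with overlap (exact permutation p = 0.4, n = 3 per arm), and by 0.79 and 0.63 at days 9 and 12 without overlap. Prph1 also moved relative to Inexa. That ratio differed by 0.23 and 0.15 at days 5 and 9, where the arms overlapped, and at day 12, where they did not overlap, it was -2.35 ± 0.21 (SD, n = 3) in controls and -1.24 ± 0.12 with CHD5 shRNA.

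**Figure D2:**
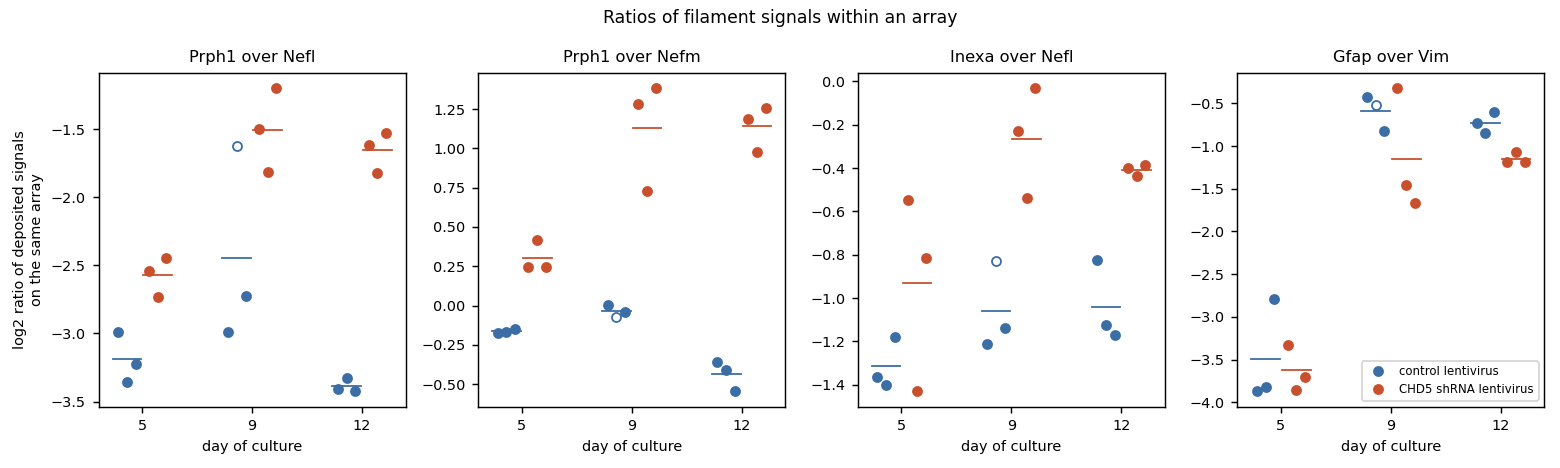
Log2 ratio of the deposited signals of 2 genes on the same array (vertical axis) by day of culture (horizontal axis), 1 circle per array and a bar at each group mean, with control arrays in blue, CHD5 shRNA arrays in red and the day 9 control array b open. Prph1 over Nefm separates the arms on all days, by 0.47, 1.17 and 1.58.

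Among the filaments of glia and of undifferentiated cells, Gfap and Vim were called lower than control at day 9 with CHD5 shRNA. Nes was not called on any day. Gfap, the main filament of astrocytes, had day 5 levels of 8.09, 7.88 and 8.07 in controls and 7.13, 7.03 and 7.09 with CHD5 shRNA. At day 9 they were 10.25, 10.11 and 10.16 in controls and 9.70, 8.77 and 8.34 with CHD5 shRNA. At day 12 they were 9.69, 9.62 and 9.87 in controls and 9.55, 9.13 and 9.20 with CHD5 shRNA. Every CHD5 shRNA array was below every control array of its day, with the widest spread among the day 9 CHD5 shRNA arrays. Their SD was 0.69, against 0.07 in day 9 controls, whereas the SE given next is shared over all groups. The difference was -0.93 ± 0.22 (SE, limma adjusted p = 0.108) at day 5, -1.24 ± 0.22 (2.36-fold lower, limma adjusted p = 0.00355) at day 9 and -0.43 ± 0.22 (limma adjusted p = 0.357) at day 12. Gfap was called lower also at day 5 once the day 9 control array b was left out (-0.95 ± 0.21, limma adjusted p = 0.0243), as it was when the day 9 CHD5 shRNA array a (limma adjusted p = 0.00541) or c (0.0388) was left out. Median centring ended the day 9 call (-1.03, limma adjusted p = 0.123), as did weighting the arrays by quality (-1.11, 0.0984).

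Vim, the vimentin of precursors, astrocytes and fibroblasts, had day 5 levels of 11.53, 11.55 and 10.83 in controls and 10.29, 10.55 and 10.67 with CHD5 shRNA. At day 9 the levels were 10.65, 10.94 and 10.98 in controls and 10.02, 10.27 and 10.08 with CHD5 shRNA. At day 12 they were 10.40, 10.47 and 10.46 in controls and 10.72, 10.21 and 10.40 with CHD5 shRNA. The arms were apart at days 5 and 9 and overlapped at day 12. The difference was -0.80 ± 0.17 (SE, limma adjusted p = 0.0655) at day 5, -0.73 ± 0.17 (1.66-fold lower, limma adjusted p = 0.018) at day 9 and -0.00 (95% interval -0.36 to 0.36) at day 12. The day 5 difference was called without the day 9 control array a (-0.80, limma adjusted p = 0.0443) or b (-0.82, limma adjusted p = 0.0131) or the day 5 control array c (-1.04, limma adjusted p = 0.0103). The day 9 call was lost without the day 9 control array c (limma adjusted p = 0.0584) or the CHD5 shRNA array a (0.0828) or c (0.104), and with median centring (-0.47, limma adjusted p = 0.518).

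Nes, the nestin of neural precursors, had levels of 9.02, 9.00 and 8.89 in day 5 controls and 8.69, 8.37 and 8.38 with CHD5 shRNA. At day 9 they were 9.15, 8.66 and 9.07 in controls and 8.73, 8.77 and 8.65 with CHD5 shRNA. The arms were apart at day 5, and at day 9 the overlap came from the control array b alone. The differences were -0.49 ± 0.13 (SE), -0.25 ± 0.13 and -0.11 ± 0.13 at days 5, 9 and 12, and their limma adjusted p-values were 0.211, 0.297 and 0.84. With the day 9 control array b left out, Nes was called lower at day 5 (-0.50 ± 0.10, limma adjusted p = 0.0149) and at day 9 (-0.40 ± 0.11, limma adjusted p = 0.0282).

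Counted over the family, 4 of the 8 genes were called at day 9, 2 higher (Prph1 and Inexa) and 2 lower (Gfap and Vim), where 5.89% of all probes tested were called. At day 12, 1 of 8 was called (Prph1, higher), where 5.47% of all probes were. At day 5, limma called 0 of 8, 4 of the 8 had an unadjusted p under 0.05 (Prph1, Gfap, Vim and Nes), and 0.171% of all probes were called, with 5.66% at an unadjusted p under 0.05. The groups did not overlap for 5 of 8 genes at day 5 (Nefh, not above background, among them), 4 of 8 at day 9 and 4 of 8 at day 12, where this held for 11.0%, 20.6% and 38.2% of all probes. Leaving out the day 9 control array b, the calls were 3 of 8 at day 5 (Gfap, Vim and Nes, all lower), 5 of 8 at day 9 (Nes added) and 2 of 8 at day 12 (Inexa added), where 1.46%, 10.6% and 13.0% of all probes were called. With the 6 day 9 arrays fitted alone, the differences stayed the same and the spread came from these arrays only. Limma then called 0 of 11079 probes and so 0 of the 8 genes at that day. The limma adjusted p-values of Prph1, Inexa, Gfap and Vim were 0.199, 0.255, 0.302 and 0.234. The median difference of the 8 genes was -0.18, -0.05 and -0.06 at days 5, 9 and 12, beside 0.01, -0.02 and 0.01 over all probes.

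**Figure D3:**
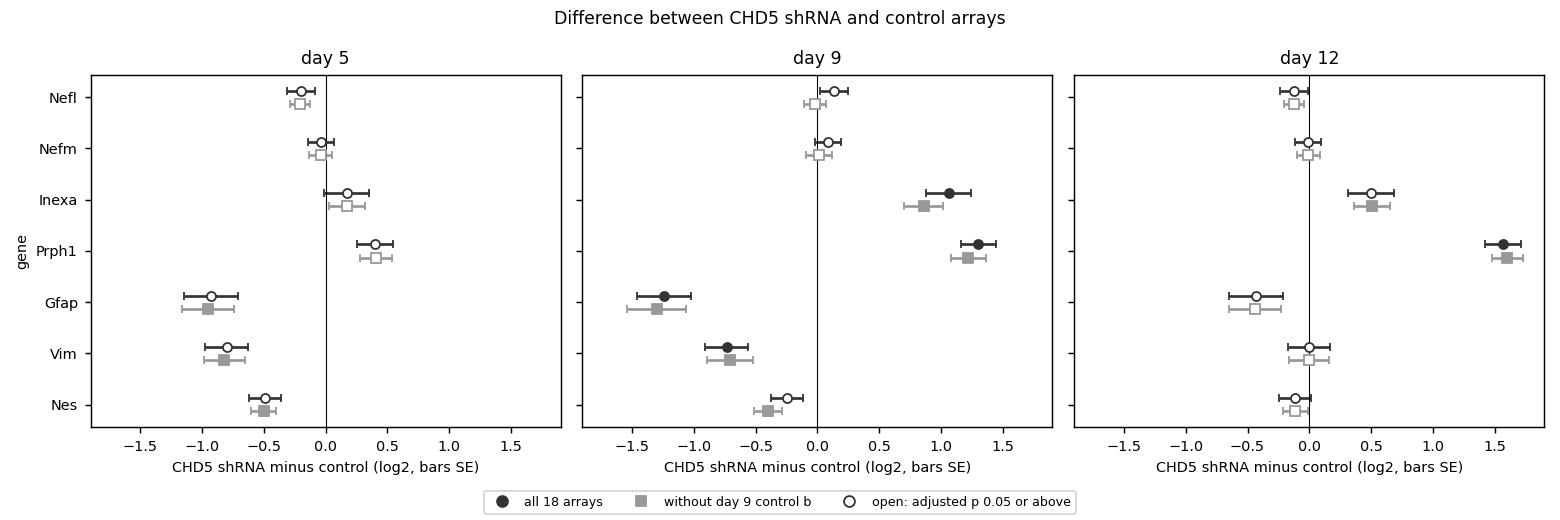
Difference of CHD5 shRNA from control on the log2 scale (horizontal axis, bars SE from limma) for the 7 genes above background (vertical axis) at each day, with all 18 arrays (circles) and without the day 9 control array b (squares), filled where the adjusted p was below 0.05. Prph1 lies at 0.40, 1.30 and 1.57, and Vim at -0.80, -0.73 and 0.00.

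Whether a difference itself changed between days was tested as the effect on 1 day minus that on another. For Prph1 the day 12 difference exceeded that of day 5 by 1.17 ± 0.20 (SE, limma adjusted p = 0.0187), the only member called of 8, where 0.153% of all probes were called. The call was lost without any 1 of 9 arrays of days 5 and 12, where the change ran from 1.04 to 1.19. The day 9 difference minus that of day 5 was 0.90 ± 0.20 (limma adjusted p = 0.224), and the day 12 difference minus that of day 9 was 0.26 ± 0.20. Over these last 2 spans limma called 0 of 8 members and 0% of all probes, and 2 and 3 members had an unadjusted p under 0.05, as did 7.3% and 2.36% of all probes. For Vim the day 12 difference was higher than that of day 9 by 0.73 ± 0.24 and for Gfap by 0.81 ± 0.31, with limma adjusted p-values of 0.994 each. The Vim difference at day 12 minus that at day 5 was 0.80 ± 0.24 (limma adjusted p = 0.258), and 1.03 without the day 5 control array c, where it was called (limma adjusted p = 0.0494).

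The same genes were then followed along the culture within each arm. These comparisons share the day 9 arrays with those above, and their values stand here on their own. In the control arm Gfap rose from day 5 to day 9 by 2.16 ± 0.22 (SE, 4.47-fold, limma adjusted p = 2e-06), and in the CHD5 shRNA arm by 1.85 ± 0.22 (3.61-fold, limma adjusted p = 2.75e-05). The groups did not overlap in either arm. Gfap had the widest range of the family, with group means from 7.08 (CHD5 shRNA, day 5) to 10.17 (control, day 9). Prph1 rose in the CHD5 shRNA arm by 0.78 ± 0.14 (limma adjusted p = 0.00207), whereas in controls it changed by -0.12 ± 0.14 (limma adjusted p = 0.523). Nefl fell in controls by 0.44 on the log2 scale (SE 0.11, limma adjusted p = 0.0102) and by 0.29 without the day 9 control array b (limma adjusted p = 0.0246), which read lowest. In the CHD5 shRNA arm Nefl differed by -0.11 ± 0.11.

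From day 5 to day 9, 2 of 8 genes were called in controls (Gfap higher, Nefl lower), where 22.0% of all probes were called and 20.7% without the day 9 control array b. In the CHD5 shRNA arm 2 of 8 were called (Gfap and Prph1, both higher), where 9.33% of all probes were. Inexa differed there by 0.49 ± 0.18 (limma adjusted p = 0.103), and was called without the day 9 control array b (limma adjusted p = 0.0149). Vim differed by -0.45 ± 0.17 in controls and -0.38 ± 0.17 in the CHD5 shRNA arm, neither called. The fall of Vim in controls was called without the day 5 control array c (-0.68, limma adjusted p = 0.00433) and with median centring (-0.92, limma adjusted p = 0.0335), and Inexa in controls (-0.40 ± 0.18, limma adjusted p = 0.12) when day 9 control a was left out (-0.54, limma adjusted p = 0.026). With array b left out in its place, Inexa differed by -0.18 (limma adjusted p = 0.489). Nefm and Nes differed by -0.23 and -0.01 in controls and by -0.10 and 0.23 in the CHD5 shRNA arm.

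From day 9 to day 12, limma called 0 of 8 genes in controls, where 4.16% of all probes were called, and 0 of 8 in the CHD5 shRNA arm, where 1.37% were. Among the 8, 3 in controls and 0 in the CHD5 shRNA arm had an unadjusted p under 0.05, as did 20.1% and 9.82% of all probes. In controls Nefl and Inexa differed by 0.37 ± 0.11 and 0.55 ± 0.18 (limma adjusted p = 0.0741 and 0.109), and both were called without the day 9 control array a (0.49 and 0.70). They were 0.23 and 0.34 when array b was left out in its place (limma adjusted p = 0.167 and 0.278). In the CHD5 shRNA arm Gfap differed by 0.36 ± 0.22, and was called without that arm's day 9 array a (0.74, limma adjusted p = 0.0188). Prph1 differed by -0.25 ± 0.14 in controls and 0.01 ± 0.14 with CHD5 shRNA.

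Markers of the cell types in such a culture were read beside the filaments. Of 14 astrocyte markers, 11 had a probe detected on at least 1 array. At day 9, 8 of these 11 were called lower with CHD5 shRNA, with a list median of -0.84 beside -0.02 over all probes. At day 12, 8 of 11 were called lower, with a median of -0.84. At day 5 limma called 0 of 11, and the median was -0.17. Of all probes, 0.171%, 5.89% and 5.47% were called at days 5, 9 and 12. Without the day 9 control array b, these shares were 1.46%, 10.6% and 13.0%. With that array left out, 0, 8 and 10 of the 11 markers were called lower at days 5, 9 and 12. Among them Aqp4, the water channel of astrocyte endfeet, differed by -0.81 and -0.83 at days 9 and 12, and Gja1, the astrocyte gap junction protein, by -1.29 and -0.84. Summed over the 11 probes, the level ranged from 18820 to 24480 with CHD5 shRNA and from 31930 to 134700 in controls at day 9. The highest value is the control array b, which the scaling stretched, and the next is 39680. Such sums, here and below, follow the brightest probes of a list. At day 5 the sums were 7108 to 7438 with CHD5 shRNA and 8761 to 9281 in controls, and at day 12 they were 30660 to 32510 and 58090 to 62240. Beside these list medians, Gfap differed by -0.93, -1.24 and -0.43 at days 5, 9 and 12, and the part of astrocyte number in this was not tested. From day 5 to day 9 all 11 markers were called higher in controls, with a median of 2.07, where 22.0% of all probes were called. With CHD5 shRNA 9 of 11 were called higher, with a median of 1.21, where 9.33% of all probes were called. Slc1a3 and Slc1a2 differed there by 1.42 and 0.26, not called (limma adjusted p = 0.0631 and 0.0664). Without the day 9 control array b all 11 were called higher with CHD5 shRNA, where 2809 of 11079 probes were called.

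Vim and Nes are also made by cells that are neither neurons nor astrocytes. Of 7 measured markers of precursors and dividing cells, limma called 0 at each of the 3 days between the arms, with medians of -0.09, -0.19 and -0.05, and the dividing-cell marker Mki67 differed by -0.01, -0.05 and -0.05. With the day 9 control array b left out, 1 of the 7 was called lower on each day (Ccna2, Prom1 and Pax6 in turn). Their summed level was 19390 to 31370 in day 5 controls and 21300 to 27010 with CHD5 shRNA, 22590 to 792200 (45920 without array b) and 38480 to 50330 at day 9, and 33060 to 43170 and 35460 to 41270 at day 12. Of 6 measured fibroblast markers, 0 were called at day 5 and 2 were called lower at day 9 (Col1a2 by -0.98 and Dcn by -0.55). With the day 9 control array b left out, these counts were 1 (Tagln) and 3 (Tagln added). At day 12, 2 of 6 were called lower with and without that array (Dcn by -0.69 and Lum, detected on 1 array, by -0.59). Their summed level was 1217 to 1511 in day 5 controls and 826.8 to 933.5 with CHD5 shRNA, 912 to 1219 and 598.9 to 819.3 at day 9, and 711.6 to 779 and 641.2 to 681.4 at day 12. Beside these lists, 0.171%, 5.89% and 5.47% of all probes were called at days 5, 9 and 12. Without the day 9 control array b, these shares were 1.46%, 10.6% and 13.0%. The fibroblast collagens Col1a1 and Col3a1 were detected on 0 arrays. The part of such cells in the lower Vim level with CHD5 shRNA was not tested.

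Neuronal and peripheral markers were set beside Prph1 and Inexa. Of 9 measured neuronal markers, 1 was called higher at day 9 and at day 12, the neuronal tubulin Tubb3 (0.55 and 0.53), and 0 were called lower. Syn1, a synaptic vesicle protein, was called higher at day 12 too once the day 9 control array b was left out. The medians were -0.08, 0.10 and 0.20 at days 5, 9 and 12. Among genes that mark peripheral and sensory neurons, where peripherin is usually found, Th, Dbh and Pou4f2 were detected on 0 arrays. Isl1, Pou4f1 and Phox2a were detected on 2, 5 and 7 of 18 arrays, and 0 of these 3 were called on any day. Microglial and endothelial lists had 2 measured genes each, of which 0 were called. Beside these lists, 0.171%, 5.89% and 5.47% of all probes were called at days 5, 9 and 12. Without the day 9 control array b, these shares were 1.46%, 10.6% and 13.0%.

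The genes that work on intermediate filaments were read as a list of linkers, kinases, chaperones, motors and turnover factors, of which 19 of 25 were measured. At day 9, 3 of 19 were called higher with CHD5 shRNA and 0 lower, with a list median of 0.04. At day 12 the same 3 were called higher and 0 lower, with a median of 0.22. They were Pak1, a kinase that phosphorylates vimentin and desmin (0.56 and 0.48), and the kinesin heavy chains Kif5a (0.49 and 0.82) and Kif5c (0.41 and 0.43), of which Kif5a carries neurofilaments along axons. At day 5, limma called 0 of 19. Of all probes, 0.171%, 5.89% and 5.47% were called at days 5, 9 and 12. Without the day 9 control array b, these shares were 1.46%, 10.6% and 13.0%. With that array left out, 3 of the 19 were called higher and 2 lower at day 9, and 6 higher and 1 lower at day 12. At day 5, 0 were then called higher and 1 lower. The lower ones included on each day Cryab, the small heat shock protein alpha B-crystallin that binds Gfap and vimentin, which differed by -0.45, -0.35 and -0.44 with all arrays.

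Of 14 other intermediate filament genes 7 were measured, namely Des, Dmn, Sync, Krt8, Krt10, Lmna and Bfsp1. Limma called 0 of these 7 between the arms at days 5, 9 and 12, where 0.171%, 5.89% and 5.47% of all probes were called. The medians of the 7 genes were 0.04, -0.12 and 0.05. Most lay near background, since Krt10 and Lmna were detected on 1 array and Des, the most often detected, on 11.

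**Figure D4:**
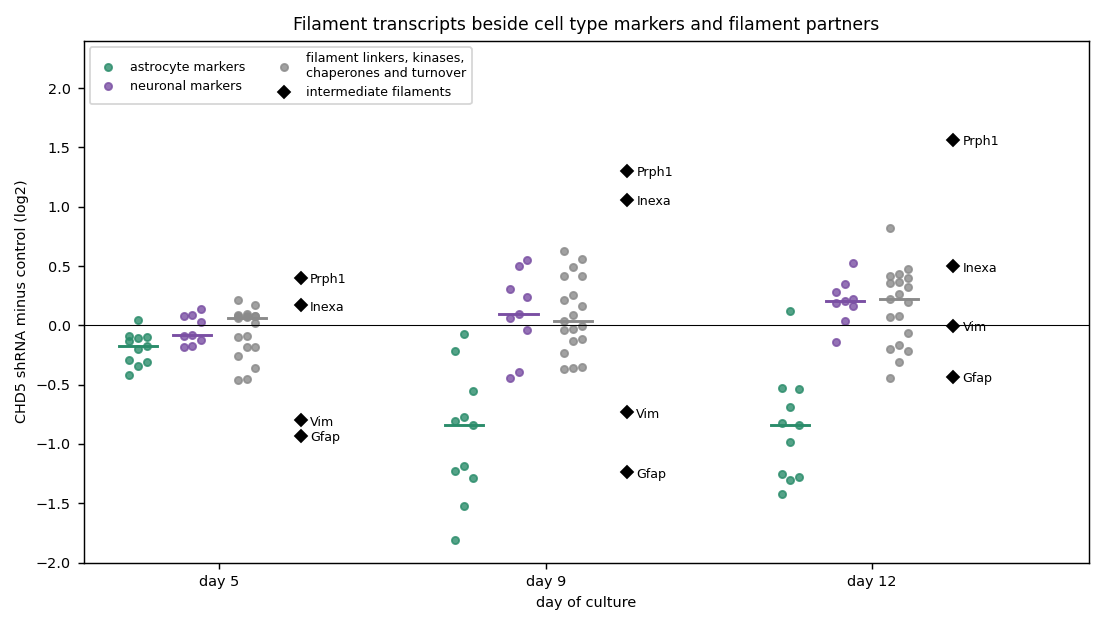
Difference of CHD5 shRNA from control on the log2 scale (vertical axis) at days 5, 9 and 12 (horizontal axis) for astrocyte markers (green), neuronal markers (purple) and filament partners (grey), 1 circle per gene with a bar at the list median, and for Prph1, Inexa, Vim and Gfap (black diamonds). The astrocyte medians are -0.17, -0.84 and -0.84, and Prph1 lies above all 3 lists on each day.

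The genes whose levels ran most like each filament gene over the 18 arrays were ranked by Pearson's r, given as a description since all points share their 6 groups. For Prph1 they were Brinp3 (0.95), RGD1565118 (0.94) and Cdc42ep2 (0.94). For Inexa they were Cacnb3 (0.94), a subunit of neuronal calcium channels, Ccdc23 (0.93) and Elmo1 (0.92). For Gfap they were Nqo1 (0.96), Uap1l1 (0.94) and Ppp1r3c (0.94).

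Over the 17 arrays other than day 9 control b, these 9 values lay between 0.90 and 0.96. Those of Nes were Kif22, Kif20a and Dlg7 (0.86, 0.85 and 0.85), all with roles in mitosis. Vim ran closest to Pak1ip1 (0.86), Nol5 (0.86) and Sdccag1 (0.85), and Nefm to RGD1564300 (0.90), RGD1310925 (0.90) and Txndc9 (0.88). The nearest genes of Nefl were Gtf2e1, Ldb2 and Celsr2 at 0.89, 0.87 and 0.87. Without the day 9 control array b these fell to 0.74, 0.70 and 0.71. Those of Nefh, which was not above background, were RGD1310376, Camk4 and LOC679028 at 0.87, 0.86 and 0.86, and 0.71, 0.71 and 0.70 without that array.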

How the data were processed

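The deposited signal intensity of each probe is the mean over its beads, which the authors extracted with GenomeStudio 1.1.1 (per the submitters' processing notes) without normalization or background subtraction. The deposited detection p-value sets a probe's signal against that array's negative control beads. The array held 22523 probes. The 6 arrays of replicate a were measured again, and the repeats entered only an alternative.

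A probe was kept if its detection p-value was 0.02 or lower on 1 or more of the 18 arrays (11079). Within each array, log2 signals were Z-transformed, rescaled to the average array SD and shifted to the average array mean. R 4.3.3 and limma 3.58.1 (lmFit, eBayes) were run on 6 groups of 3 arrays, with Benjamini-Hochberg adjustment per comparison and a limit of 0.05. The procedure was tested on simulated data for the day 9 comparison only. The simulation gave each probe the same spread on all arrays and held no array like day 9 control b. It therefore cannot show how the procedure copes with such an array. Of several probes of a gene, that with the highest mean signal was to be taken, and the 3 probes of other genes with the highest correlation were named for each member. The members and lists were chosen with earlier results of these data known. The lists were other intermediate filaments, filament partners, and markers of neurons, astrocytes, precursors, fibroblasts, microglia, endothelium and peripheral neurons. Some markers are not reported here.

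Alternatives were other normalizations, filters, array weights, fewer arrays and a replicate block. Letters a, b and c were checked by correlating, across probes, the deviations of same-letter arrays from their groups. Day 5 gave 0.27, 0.17 and 0.38 for a, b and c in turn. Day 9 gave 0.43, 0.15 and -0.20, while day 12 gave 0.05, 0.15 and 0.01. Arrays of different letters were not compared in this way, so these values cannot tell whether the letters mark pairs. The number of arrays limits the precision. The slide of each array was not used here.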

Additional observations from a re-analysis of the deposited data

Results flagged for a closer look

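The difference of Prph1 between CHD5 shRNA and control arrays was called as changed between day 5 and day 12, but not over the other spans of days. The call held in 9 of 18 fits that left out an array. It was lost with median centring and without a detection filter. With all arrays, the Prph1 difference was larger at day 12 than at day 5 by 1.17 on the log2 scale (limma adjusted p = 0.0187). On both days 3 of 3 CHD5 shRNA arrays lay above 3 of 3 control arrays.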

How the results depend on the processing

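The difference of Prph1 from control at day 12 passed the limit under all 28 alternatives run (1.51 to 1.67 when leaving out an array). At day 9 Prph1 and Inexa passed it under 27 of 28 alternatives, Gfap under 25 and Vim under 23. The exception for all 4 was the fit of the day 9 arrays alone, which called 0 of all 11079 probes. That fit left the differences as they were and took the spread from those arrays only. So the day 9 calls depend on the spread shared with the other days. The causes of the differences between the arms were not tested. Depth limits Nefh, which was not above background.

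The count of members called at day 5 (0, with 19 of all probes called) was 2 with quantile normalization (94), 1 with neqc (61), 1 when detection was required on 3 of 3 arrays of a group (38 of 9107), 1 with only the arrays compared (12), and 0 to 3 when leaving out an array. At day 9 (4, with 653 of all probes called) it was 2 with median centring (65). At day 12 (1, with 606 of all probes called) it was 2 with quantile normalization (977), 4 with array weights (3575), 3 with only the arrays compared (2612) and 1 to 2 when leaving out an array. In controls from day 5 to day 9 (2) it was 1 with array weights and 1 with only the arrays compared. In controls from day 9 to day 12 (0) it was 1 with quantile normalization, 1 with neqc and 0 to 2 when leaving out an array. With CHD5 shRNA from day 5 to day 9 (2, with 1034 of all probes called) it was 4 with quantile normalization (1646), 4 with neqc (1385), 5 with array weights (4028) and 4 with only the arrays compared (2876). With CHD5 shRNA from day 9 to day 12 (0) it was 1 with array weights and 0 to 1 when leaving out an array. For the day 12 effect minus the day 5 effect (1) it was 0 with median centring, 0 without a detection filter and 0 to 2 when leaving out an array.

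With a replicate block by letter, 2 members were called at day 12, 1 in controls from day 9 to day 12, and 3 from day 5 to day 9 in each arm, with Inexa the one added each time. A replicate block within a day gave 2 at day 12 (Inexa added) and 0 at day 5. It changed no other count of calls between the arms, and no value of it can be had for comparisons between days within an arm.

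No called difference changed direction. Differences near 0 that did were Vim at day 12 (0.0099 with quantile normalization, 0.0093 with neqc, -0.14 to 0.11 when leaving out an array), Nefm at day 12 (0.0004 without a detection filter, 0.005 with the mean of both measurements of replicate a, -0.047 to 0.033 when leaving out an array), Nefm at day 5 (-0.10 to 0.077) and Nefl at day 9 (-0.023 to 0.24), both when leaving out an array. Nes in controls from day 5 to day 9 was 0.22 with quantile normalization, 0.26 with neqc, 0.030 when detection was required on 3 of 3 arrays, 0.12 with array weights and -0.10 to 0.14 when leaving out an array. With CHD5 shRNA from day 9 to day 12, Prph1 was -0.038 with quantile normalization, -0.041 with neqc, -0.021 with array weights and -0.16 to 0.13 when leaving out an array, and Inexa was 0.016 with median centring and -0.16 to 0.084 when leaving out an array. The Vim effect at day 9 minus that at day 5 was -0.25 with array weights and -0.058 to 0.30 when leaving out an array.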
